A study of Mus musculus with 8 samples.

Results

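The p300 peaks of iMOP-derived neurons were set against those of proliferating iMOPs, with 965 peaks listed in neurons and 3144 in proliferating iMOPs, 4109 of the 26724 peaks in the 6 lists read from the series. The members are all peaks of the p300 lists, taken without selection. iMOPs are an immortalized line of mouse otic progenitors, the cells that give rise to hair cells and neurons of the inner ear. Neurons were kept in Neurobasal medium with N21, 2 mM glutamine and 1 µM K03861, an inhibitor of the cell cycle kinase CDK2. Proliferating iMOPs had DMEM/F12 with B27, the growth factor bFGF at 20 ng/ml and the antibiotic carbenicillin at 25 µg/ml. Of 18 neuron markers, 3 had H3K4me3 at an end in the neuron list, so the name of that state rests on the labels. Both are wild-type and come from the same line, and each p300 list stands for 1 CUT&Tag library of 500000 cells, in which transposase tethered through an antibody leaves sequencing tags beside the bound protein. With 1 library per state no difference below has a replicate check, and no test between the states was made. Intervals beside shares are exact 95% ones (Clopper-Pearson) for counting error alone. IgG libraries were not analysed here, and the peaks therefore have no measured background.

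p300, encoded by Ep300, is a lysine acetyltransferase and transcriptional coactivator, closely related to CBP, the product of Crebbp. It does not read DNA itself. It is brought to enhancers and promoters by transcription factors such as CREB, AP-1 proteins, the Notch intracellular domain and its partner RBPJ, and it acetylates histones there, including lysine 27 of histone H3. p300 away from promoters is widely used to find enhancers, while H3K4me3 marks the starts of active genes and CHD4 is the motor of the NuRD remodelling and deacetylase complex.

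Most neuron p300 peaks lay where proliferating iMOPs also had a peak, while most proliferating peaks had no neuron counterpart. The proliferating peaks without one lay at gene ends and on H3K4me3 more often than those that were shared. The promoters of a few genes of each kind are shown, so that the classes below can be read against the DNA they concern. Each sequence is the 250 bases before an annotated transcript start, from RefSeq on GRCm38.p6, the assembly behind mm10. It is written 5′ to 3′ on the strand of the gene, with capitals at every GGGCGG (a GC box, the letters Sp factors bind), CCAAT (the letters NF-Y binds) and TGACG (the core of a CREB/ATF site), each on either strand. A full CREB site (TGACGTCA) holds that core on both strands and counts as 2. Dll1, Notch1, Jun and Tubb3 had p300 over this window in both states:
Dll1, chr17:15375824-15376073, minus strand: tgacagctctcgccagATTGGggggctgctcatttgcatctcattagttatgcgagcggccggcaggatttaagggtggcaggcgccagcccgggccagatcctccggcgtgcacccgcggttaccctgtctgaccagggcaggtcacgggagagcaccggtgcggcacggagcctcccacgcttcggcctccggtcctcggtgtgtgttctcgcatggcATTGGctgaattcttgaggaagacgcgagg
Notch1, chr2:26503823-26504072, minus strand: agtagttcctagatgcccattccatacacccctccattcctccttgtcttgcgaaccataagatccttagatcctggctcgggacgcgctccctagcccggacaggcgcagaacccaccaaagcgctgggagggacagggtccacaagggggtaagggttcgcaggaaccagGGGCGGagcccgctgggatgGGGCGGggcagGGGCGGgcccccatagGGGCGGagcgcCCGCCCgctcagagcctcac
Jun, chr4:95052223-95052472, minus strand: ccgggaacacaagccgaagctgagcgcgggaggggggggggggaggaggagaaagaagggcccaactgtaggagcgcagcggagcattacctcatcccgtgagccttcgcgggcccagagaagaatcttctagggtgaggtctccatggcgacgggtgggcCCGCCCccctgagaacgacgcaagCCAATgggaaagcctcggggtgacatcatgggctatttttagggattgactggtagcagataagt
Tubb3, chr8:123411303-123411552, plus strand: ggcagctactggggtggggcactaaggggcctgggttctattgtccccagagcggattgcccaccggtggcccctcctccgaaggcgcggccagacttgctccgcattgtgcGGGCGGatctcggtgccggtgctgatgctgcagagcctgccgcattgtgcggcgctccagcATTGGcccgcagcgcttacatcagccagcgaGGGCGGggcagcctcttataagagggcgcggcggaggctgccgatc
Fos, Btg2, Id2, Hes5 and Sox2 had it in proliferating iMOPs only:
Fos, chr12:85473640-85473889, plus strand: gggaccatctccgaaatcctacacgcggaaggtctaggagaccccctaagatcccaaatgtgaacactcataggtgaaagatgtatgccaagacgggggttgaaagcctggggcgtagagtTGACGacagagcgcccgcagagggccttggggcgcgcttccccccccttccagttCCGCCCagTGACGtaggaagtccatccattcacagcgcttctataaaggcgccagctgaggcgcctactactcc
Btg2, chr1:134079156-134079405, minus strand: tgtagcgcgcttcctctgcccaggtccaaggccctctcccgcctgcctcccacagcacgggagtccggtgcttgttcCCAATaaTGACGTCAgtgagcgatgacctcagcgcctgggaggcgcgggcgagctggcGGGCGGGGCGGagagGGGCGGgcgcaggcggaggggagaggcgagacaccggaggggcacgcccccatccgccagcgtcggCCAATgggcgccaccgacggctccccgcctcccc
Id2, chr12:25096093-25096342, minus strand: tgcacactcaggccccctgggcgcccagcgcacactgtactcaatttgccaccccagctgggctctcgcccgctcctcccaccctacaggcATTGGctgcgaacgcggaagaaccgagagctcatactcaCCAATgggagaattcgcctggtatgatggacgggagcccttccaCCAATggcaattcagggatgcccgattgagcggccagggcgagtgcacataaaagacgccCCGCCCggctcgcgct
Hes5, chr4:154960673-154960922, plus strand: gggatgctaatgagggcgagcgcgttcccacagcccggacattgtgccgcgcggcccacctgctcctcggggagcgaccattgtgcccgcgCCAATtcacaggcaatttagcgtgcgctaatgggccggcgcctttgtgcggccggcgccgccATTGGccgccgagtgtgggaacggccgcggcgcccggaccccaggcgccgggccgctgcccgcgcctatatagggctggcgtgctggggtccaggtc
Sox2, chr3:34649745-34649994, plus strand: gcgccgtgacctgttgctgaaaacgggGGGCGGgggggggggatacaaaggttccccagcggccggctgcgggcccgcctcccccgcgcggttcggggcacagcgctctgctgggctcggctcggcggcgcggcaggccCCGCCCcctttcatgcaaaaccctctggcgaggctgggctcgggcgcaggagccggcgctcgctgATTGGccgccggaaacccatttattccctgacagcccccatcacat
Celsr2 and Kat6b had it in neurons only:
Celsr2, chr3:108415580-108415829, minus strand: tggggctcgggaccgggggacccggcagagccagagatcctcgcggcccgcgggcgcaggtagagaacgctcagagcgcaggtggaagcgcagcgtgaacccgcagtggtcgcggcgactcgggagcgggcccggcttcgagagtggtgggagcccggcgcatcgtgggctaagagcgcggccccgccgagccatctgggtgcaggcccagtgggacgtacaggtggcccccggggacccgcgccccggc
Kat6b, chr14:21499520-21499769, plus strand: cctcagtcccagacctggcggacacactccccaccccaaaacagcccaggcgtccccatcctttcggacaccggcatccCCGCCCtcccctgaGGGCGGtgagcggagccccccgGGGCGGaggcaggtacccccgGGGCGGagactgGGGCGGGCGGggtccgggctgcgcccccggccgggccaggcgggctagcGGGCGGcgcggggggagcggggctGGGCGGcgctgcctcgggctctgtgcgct

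Over all 21263 starts of 17492 genes with a 300-base promoter sequence (250 before and 50 after the start), p300 covered part of the window at 198 in neurons (0.931%) and 1513 in proliferating iMOPs (7.12%). The promoters with p300 in proliferating iMOPs only were close to those with H3K4me3 and no p300 in the letters below, except for those of NF-Y. The GC box GGGCGG was present in 57.9% of the 57 promoters with p300 in neurons only (interval 44.1 to 70.9), in 68.1% of the 141 with p300 in both states (59.7 to 75.7) and in 72.2% of the 1372 with p300 in proliferating iMOPs only (69.7 to 74.5). Among 6634 promoters with H3K4me3 and no p300 the share was 70.5%, and among all promoters 46.2%. CCAAT was present in 45.6% (32.4 to 59.3) of the promoters with p300 in neurons only and in 37.6% (29.6 to 46.1) of those with both, intervals that also hold the 38.2% of all promoters. It was present in 48.8% (46.2 to 51.5) of those with p300 in proliferating iMOPs only, above 37.6% (36.4 to 38.7) of the promoters with H3K4me3 and no p300. TGACG was present in 22.8% (12.7 to 35.8) of the neuron-only promoters, 30.5% (23.0 to 38.8) of those with both and 34.1% (31.6 to 36.7) of the proliferating-only promoters, against 35.5% of promoters with H3K4me3 and no p300 and 23.6% of all. The E-box CACGTG stood in 2 of 57 neuron-only and 6 of 141 shared promoters and in 11.2% (9.53 to 12.9) of the proliferating-only promoters, against 10.5% of those with H3K4me3 and no p300 and 7.84% of all. Letters found in a window are a description of the DNA and not a bound site, and starts of 1 gene can share most of a window.

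The lists differed in length, in width and in scale. Neuron peaks had a median width of 4050 bp (quartiles 3050 and 5600) and covered 4491774 bp, and proliferating peaks a median of 3350 bp (quartiles 2450 and 4700) and 12495685 bp. The order of the widths was the reverse when the 965 strongest proliferating peaks by total signal were taken, whose median was 4800 bp. The highest signal of every peak was a whole multiple of 1 step, within 0.05 of a step, with a step of 0.390 in neurons and 0.297 in proliferating iMOPs. The sources used here do not say what a step stands for, and read depth is unknown. The lowest total signal in the neuron list was 68996.6 and that in the proliferating list 11491.2, a ratio of 6.004 on the deposited scale and 4.57 in steps. Only 62 of the 3144 proliferating peaks reached the neuron minimum on the deposited scale, and 131 did in steps. Within overlapping pairs the highest signal was above in neurons in 743 of 744, with a median ratio of 4.39 on the deposited scale and 3.34 in steps. The neuron list thus begins at a higher signal, and how far this reflects the threshold of the peak caller, the depth or the cells cannot be told apart. Signal is therefore used below only as a rank within a list, from 1 for the highest total. Since the lists hold 965 and 3144 peaks, ranks set side by side are not on 1 scale.

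Of the 965 neuron peaks, 730 (75.6%, interval 72.8 to 78.3) overlapped a proliferating p300 peak by at least 1 bp, and of the 3144 proliferating peaks 739 (23.5%, 22.0 to 25.0) overlapped a neuron peak. This left 235 peaks listed in neurons only and 2405 in proliferating iMOPs only. By length, 2.90 Mb lay in both lists, which is 64.6% of the bases in the neuron list and 23.2% of those in the proliferating list. When the proliferating list was cut to its 965 strongest peaks by total signal, the shares were 466 of 965 (48.3%) in neurons and 465 of 965 (48.2%) in proliferating iMOPs. The other 264 shared neuron peaks therefore matched proliferating peaks below that rank. Peaks listed in 1 state were the weaker ones in both lists. On a percentile scale of rank, on which the strongest peak has the highest value, their median was 32.6 in neurons and 42.3 in proliferating iMOPs, against 55.2 and 79.4 for shared peaks. They were also narrower, with medians of 3700 bp in neurons and 3200 bp in proliferating iMOPs, against 4150 bp and 4000 bp for shared ones. All of the 20 strongest neuron peaks were shared, 49 of the first 50 and 97 of the first 100, whereas 12 of the first 20, 35 of the first 50 and 74 of the first 100 proliferating peaks were.

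Shared peaks formed 744 overlapping pairs of 730 neuron and 739 proliferating peaks, since 14 neuron peaks covered more than 1 proliferating peak and 5 proliferating peaks more than 1 neuron peak. Widths within pairs ran both ways: the neuron peak was wider in 385 pairs, the proliferating peak in 341 and both were the same in 18. The strength order was kept loosely, with a Spearman coefficient between ranks of 0.31 over the 744 pairs, given as a description because both ranks depend on peak width. The strongest point within the peak moved little. It was taken as the midpoint of the stretch of highest signal. Where a neuron peak overlapped more than 1 proliferating peak, the proliferating peak with the highest total signal was used. The midpoints were the same for 289 of the 730 neuron peaks (39.6%, 36.0 to 43.2). They lay within 500 bp for 631 (86.4%, 83.7 to 88.8), with a median offset of 50 bp.

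**Figure D1:**
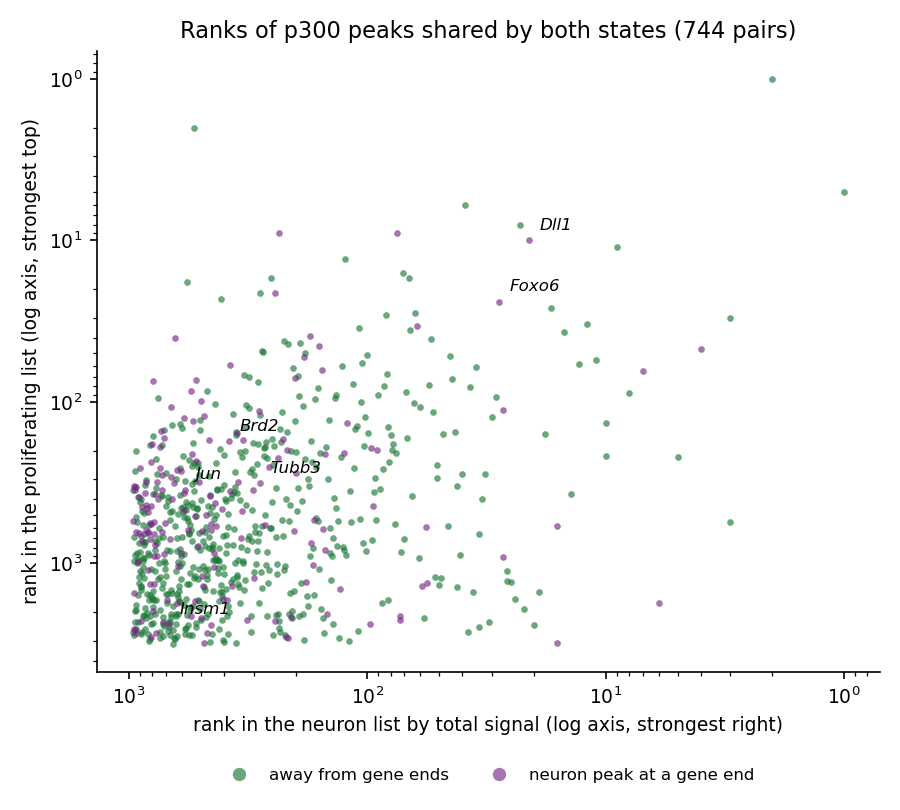
Rank by total signal of each pair of overlapping p300 peaks, in the neuron list (horizontal, strongest to the right) and in the proliferating list (vertical, strongest at the top), both on log axes. Each of the 744 points is a pair, coloured by whether the neuron peak lies within 1 kb of a gene end. Dll1 (21 and 10) and Foxo6 (28 and 24) stand near the top of both lists, and Insm1 (680 and 2369) ranks lower in both.

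Several of the strongest p300 peaks away from gene ends were the same sites in both states. The peak that ranked 1st in neurons and 5th in proliferating iMOPs lay inside Fbxw8, which encodes an F-box protein of a ubiquitin ligase, at chr5:118072401-118087550 in neurons. A peak in Slit1, the gene of a repellent axon guidance ligand, had rank 5 in neurons and rank 219 in proliferating iMOPs. A peak near Btbd16 ranked 9th in neurons and 11th in proliferating iMOPs. None of these 3 carried neuron H3K4me3, and of them only the Fbxw8 site carried proliferating H3K4me3.

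At gene ends, some of the strongest shared neuron peaks stood lower in the proliferating list, also on the percentile scale within each list. That scale does not make the lists alike, since the median of shared peaks was 55.2 in neurons and 79.4 in proliferating iMOPs. Chrna4, a nicotinic acetylcholine receptor subunit gene, had rank 59 and percentile 93.9 in neurons (12550 bp), and rank 1370 and percentile 56.4 in proliferating iMOPs (6100 bp). The neuron peak at BC034090 and Stx6, a syntaxin gene, had rank 6 and percentile 99.4 (6700 bp), and the proliferating peak it overlapped rank 1754 and percentile 44.2 (1850 bp). For other genes the gap was smaller on that scale. Kcnj12, which encodes an inward rectifier potassium channel, was at percentile 94.1 in neurons and 81.0 in proliferating iMOPs, and Flrt1, a cell adhesion and guidance gene, at 98.4 in neurons and 81.3 in proliferating iMOPs. Other strong shared peaks ranked high in both lists, namely Inka2 with rank 4 in neurons and 47 in proliferating iMOPs, and the forkhead gene Foxo6 with rank 28 in neurons and 24 in proliferating iMOPs. The Inka2 peak was 15550 bp wide in both states, displaced by 100 bp, and that of Foxo6 began at the same base, 120275151 on chromosome 4, in both.

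Peaks listed in neurons only were few at gene ends, and the widest of the neuron list was among them. Celsr2, which encodes an atypical cadherin that acts in neuronal development, had a neuron p300 peak of 22250 bp with rank 109 (chr3:108395201-108417450) and no proliferating p300 peak, although H3K4me3 and CHD4 were listed there in both states. Other neuron-only peaks at gene ends lay at Gpr142 (rank 74), at Trhr2 (rank 274), a receptor gene for thyrotropin-releasing hormone, at the zinc-finger gene Zbtb20 (rank 291), at Otoa (rank 329), the gene of the inner ear protein otoancorin, and at Rasl11b (rank 338). Of these, Gpr142, Trhr2, Zbtb20 and Otoa had CHD4 in neurons and not in proliferating iMOPs, and none of these 4 had neuron H3K4me3. Proliferating H3K4me3 was listed at Gpr142 and Zbtb20 and not at Trhr2 or Otoa. These 4 do not stand for the class. Of all 44 neuron-only peaks at gene ends, 19 (43.2%) had proliferating CHD4 and 15 (34.1%) neuron H3K4me3. The neuron-only peak at Gmppa (rank 189) had CHD4 in neither state. Away from gene ends the strongest neuron-only peaks on assembled chromosomes lay 8845 bp from Igdcc3 (rank 47, 10700 bp), 308 kb from the SoxD gene Sox5 (rank 112) and 177 kb from Gadd45g (rank 116).

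The strongest peaks at gene ends in proliferating iMOPs only belonged largely to genes of general cell function. They included Mcl1, an inhibitor of apoptosis (rank 15, 29050 bp, also at Adamtsl4), Fasn, the fatty acid synthase gene (rank 20, 27800 bp, also at Ccdc57), Actg1, a cytoplasmic actin gene (rank 27), Lfng (rank 32), and the nuclear receptor gene Thra (rank 54). Each of these 5 peaks overlapped H3K4me3 in both states, so the promoter mark was listed in neurons where p300 was not. Neuron CHD4 was listed at 3 of them and not at Fasn or Thra. Sfi1 (rank 14) lay among the strongest too, on the first part of chromosome 11 (from 3122101), with H3K4me3 in proliferating iMOPs and not in neurons. Away from gene ends, the strongest proliferating-only peak lay 72.4 kb from Gadd45g, a growth arrest gene (rank 3, 8800 bp). Others lay inside Gse1 (rank 7), inside Ccdc85c (rank 12) and inside the nuclear factor I gene Nfic (rank 19).

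How often a proliferating peak was also listed in neurons depended on its strength and on its location. The proliferating list was divided by total signal into 10 parts of 314 or 315 peaks. In the strongest part, 153 of 205 peaks away from gene ends (74.6%, 68.1 to 80.4) and 60 of 109 at a gene end (55.0%, 45.2 to 64.6) overlapped a neuron peak. In the third part the shares were 42.2% (34.9 to 49.8) away from gene ends and 16.3% (10.5 to 23.6) at gene ends. In the fourth part they were 37.9% (30.7 to 45.6) and 6 of 140 (4.29%, 1.59 to 9.09), and in the last part 8.33% (4.74 to 13.4) and 2.22% (0.461 to 6.36). Away from gene ends the share was higher in all 10 parts, and the intervals of the 2 kinds of peak overlapped in the last part only. Over the whole list, 573 of 1776 peaks away from gene ends (32.3%, 30.1 to 34.5) and 166 of 1368 at gene ends (12.1%, 10.5 to 14.0) were shared. H3K4me3 divided the list in much the same way, with 169 of 1407 peaks that overlapped proliferating H3K4me3 shared (12.01%) and 570 of 1737 that did not (32.8%). Peaks at gene ends made up 34.7% of the strongest part and between 41.7% and 47.8% of the other 9 parts. In the neuron list the intervals of the same kinds of peak overlapped, with 163 of 207 peaks at gene ends (78.7%, 72.5 to 84.1) and 567 of 758 away from them (74.8%, 71.6 to 77.9) shared.

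**Figure D2:**
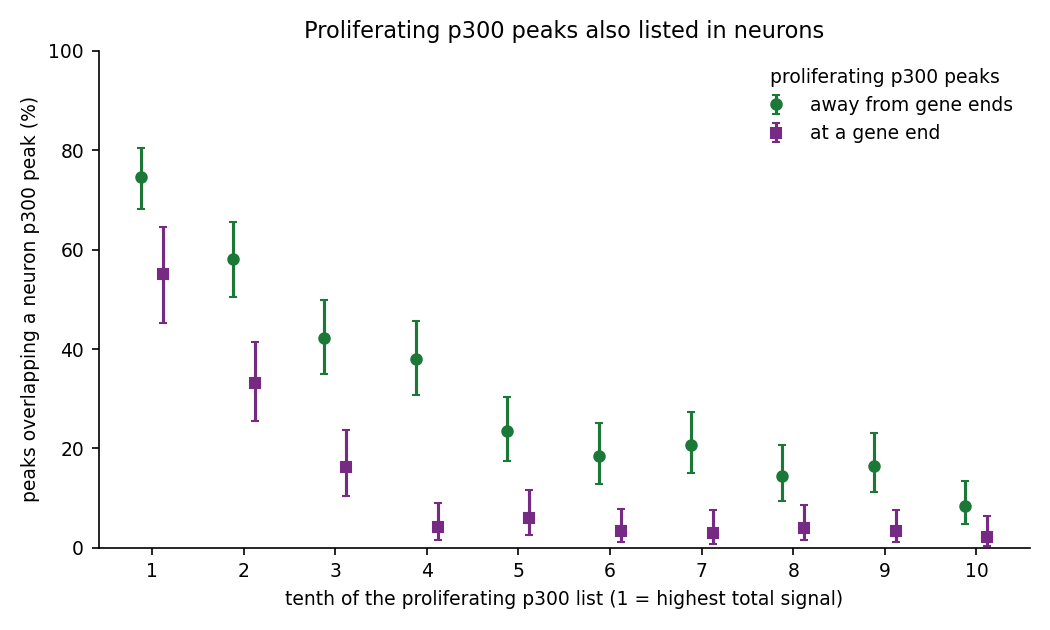
Share of proliferating p300 peaks that overlap a neuron p300 peak (vertical, in percent), in 10 equal parts of the proliferating list from the highest total signal (1) to the lowest (10). Circles are peaks away from gene ends and squares are peaks within 1 kb of a gene end, with exact 95% intervals as bars. The first part stands at 74.6% and 55.0%, and the fourth at 37.9% and 4.29%.

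Location differed accordingly between the lists. A gene end (within 1 kb of either end of a protein-coding gene) was reached by 207 of 965 neuron peaks (21.5%, 18.9 to 24.2) and 1368 of 3144 proliferating peaks (43.5%, 41.8 to 45.3). Elsewhere inside a gene lay 39.9% of neuron and 27.1% of proliferating peaks, within 50 kb of a gene 25.0% and 18.3%, and farther out 13.4% and 10.4%. The median distance from the strongest point of a peak to the nearest gene end was 19156 bp in neurons and 5767.5 bp in proliferating iMOPs. At a gene end lay 44 of 235 neuron-only peaks (18.7%, 13.9 to 24.3), 22.3% of the shared neuron peaks, 22.5% of the shared proliferating peaks, and 1202 of 2405 proliferating-only peaks (49.98%, 47.96 to 52.00). At equal list length, of the 965 strongest proliferating peaks, 41.0% (37.9 to 44.2) were at a gene end, and of the 500 among them that overlapped no neuron peak 53.4% (48.9 to 57.8).

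H3K4me3 of the same state lay under 14.4% of neuron p300 peaks (12.2 to 16.8) and 44.8% of proliferating ones (43.0 to 46.5). Of the 1238 proliferating-only peaks with proliferating H3K4me3, 1027 (82.96%, 80.74 to 85.01) had H3K4me3 in neurons too. Among the 169 shared proliferating p300 peaks with proliferating H3K4me3, 125 (73.96%, 66.67 to 80.40) had it. Counted over H3K4me3 peaks and not p300 peaks, 5529 of all 7472 proliferating ones (74.0%, 72.99 to 74.99) overlapped neuron H3K4me3. Neuron CHD4 lay at 1637 of the 2405 proliferating-only p300 peaks (68.1%, 66.2 to 69.9), beside 737 of the 739 shared ones (99.7%). Of the 2153 proliferating-only p300 peaks with proliferating CHD4, 1599 (74.3%, 72.4 to 76.1) had neuron CHD4. Over all proliferating CHD4 peaks, 3258 of 4919 (66.2%, 64.9 to 67.5) overlapped neuron CHD4, which is a share of CHD4 peaks. Of the 235 neuron-only peaks, 234 had neuron CHD4 and 116 had proliferating CHD4 (49.4%, 42.8 to 55.9). Neuron H3K4me3 lay at 21 of them (8.94%, 5.62 to 13.3) and proliferating H3K4me3 at 22 (9.36%, 5.96 to 13.8).

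**Figure D3:**
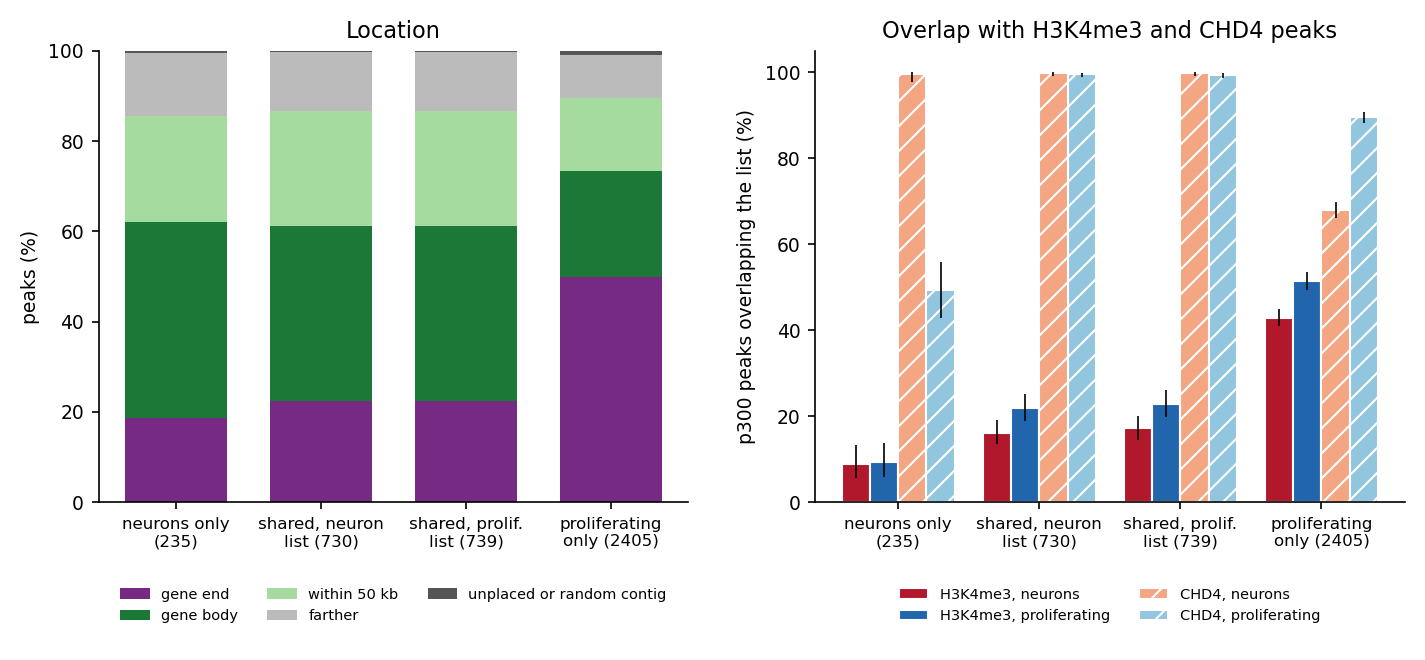
Left, location of p300 peaks listed in neurons only, shared (counted from each list) and listed in proliferating iMOPs only, in percent of each class. Right, share of the same peaks that overlap H3K4me3 and CHD4 peaks of each state, with exact 95% intervals. Gene ends take 18.7% of neuron-only and 49.98% of proliferating-only peaks, and on the right neuron CHD4 lies at 68.1% of proliferating-only peaks.

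Counted by gene, p300 lay at an end of 271 of 21887 protein-coding genes in neurons (1.24%) and of 1847 in proliferating iMOPs (8.44%). Both states had it at 196 genes (0.896%), neurons only at 75 (0.343%) and proliferating iMOPs only at 1651 (7.54%). Of the 75, 19 had a neuron peak that overlapped a proliferating peak which stopped short of the window, and 56 had none. H3K4me3 was listed in neurons at 1306 of the 1651 genes with p300 in proliferating iMOPs only (79.1%, 77.1 to 81.0), while over all 21887 genes it was listed at 6561 in neurons and 8224 in proliferating iMOPs. The 23 gene groups examined hold 555 distinct genes, of which 23 had p300 at an end in neurons (4.14%) and 143 in proliferating iMOPs (25.8%). With the proliferating list trimmed to the neuron length by total signal, 52 of the 555 had it in proliferating iMOPs. Under that trim the proliferating count fell below the neuron count for coactivators and for Slit, Robo and netrin genes, 1 against 2 in each. It equalled the neuron count for BMP and TGF-beta genes and otic progenitor regulators (0), proneural and neuronal factors (1) and neuronal cytoskeleton genes (2). In the other lists it stayed above. Trimmed by highest signal instead, the proliferating count was below the neuron count for coactivators and neuronal cytoskeleton genes, 0 against 2 in each. It was also below for stress response genes and for Slit, Robo and netrin genes, 1 against 2 in each. It equalled the neuron count for otic progenitor regulators, Eph and ephrin, semaphorin and ribosomal protein genes (0), proneural factors and synapse genes (1) and metabolic genes (4). The remaining lists stayed above. Every list count below is to be read beside the shares of all genes, 1.24% in neurons and 8.44% in proliferating iMOPs, without a test. At 1.24%, a count of 0 in neurons in a list this short does not set the list apart from all genes. A peak can reach the ends of several genes, and each gene is then counted.

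**Figure D4:**
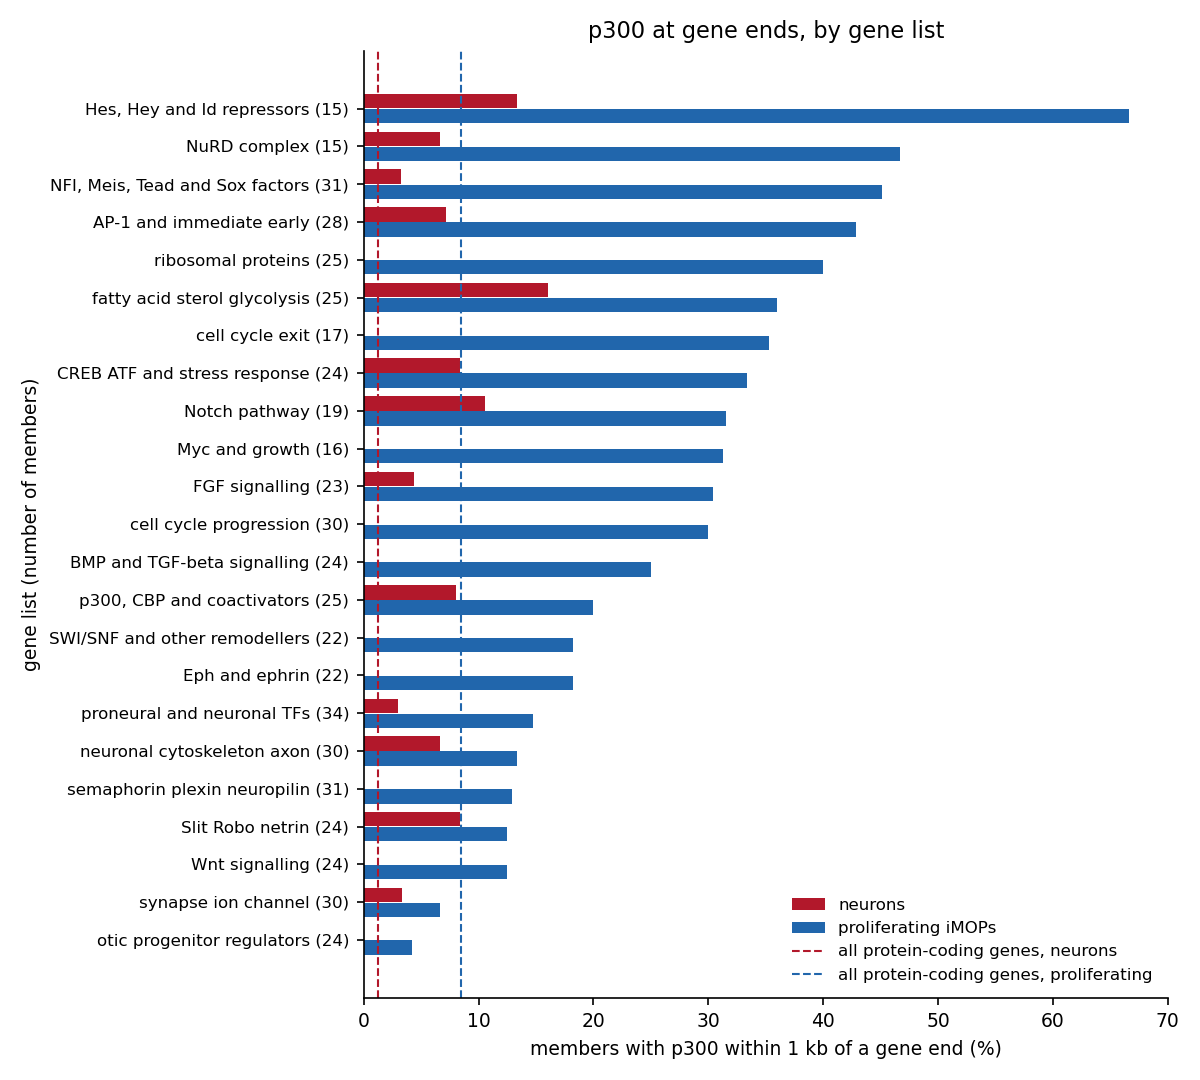
Percentage of the members of 23 gene lists with p300 within 1 kb of a gene end, in neurons (upper bar of each pair) and proliferating iMOPs (lower bar). Dashed lines give the share of all protein-coding genes, 1.24% in neurons and 8.44% in proliferating iMOPs. Hes, Hey and Id repressors stand at 2 of 15 in neurons and 10 of 15 in proliferating iMOPs, and fatty acid, sterol and glycolysis genes at 4 of 25 and 9 of 25.

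The genes of p300 itself and of CBP carried no p300. Ep300 and Crebbp had H3K4me3 at an end in both states and no p300 peak at an end or nearby in either list. Of 25 acetyltransferase and coactivator genes, 2 had p300 in neurons and 5 in proliferating iMOPs. Brd2, which encodes a bromodomain protein that reads acetylated histones, had it in both, with rank 381 (5450 bp) in neurons and rank 175 (7700 bp) in proliferating iMOPs. Kat6b, another lysine acetyltransferase gene, had it in neurons only (rank 792, 3250 bp). Cited2, whose product binds p300 and CBP, had it in proliferating iMOPs only (rank 1175), as did the Mediator gene Med24 (rank 1180) and the acetyltransferase gene Kat7 (rank 1758).

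The immediate early genes, which are known targets of p300 and CBP, had p300 at 2 of 28 members in neurons and 12 in proliferating iMOPs. Jun, the AP-1 subunit gene whose promoter is printed above, had peaks of almost the same extent in both states, with rank 583 (4300 bp, chr4:95049751-95054050) in neurons and rank 349 (4150 bp, from 95049901 to the same end) in proliferating iMOPs. Klf10 was the other shared member (rank 226 in neurons and 169 in proliferating iMOPs). The AP-1 genes Junb (rank 230, 9050 bp), Jund (rank 304) and Fos (rank 1565, 3550 bp) and the early response gene Ier2 (rank 389) had p300 at an end in proliferating iMOPs only. At Fos the window above holds 2 TGACG elements, and H3K4me3 and CHD4 were listed at an end of the gene in both states. A neuron p300 peak away from the ends of Fos (rank 891) matched no proliferating peak. At Nr4a1, an orphan nuclear receptor gene of this list with no p300 at an end, a nearby peak ranked 39th in neurons and 6th in proliferating iMOPs. This is the peak for which Grasp is the nearest gene (chr15:101234401-101238350 in neurons).

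Stress response genes gave 2 of 24 members in neurons and 8 in proliferating iMOPs. Ddit4, an inhibitor of mTOR signalling induced by stress, had p300 in both, with rank 155 (4550 bp) in neurons and rank 63 (7950 bp) in proliferating iMOPs. It also had 3 further peaks nearby in neurons, all of them shared, and 5 in proliferating iMOPs. Trib1, a pseudokinase gene, had rank 729 in neurons and 283 in proliferating iMOPs. Gadd45g (rank 328, 10200 bp), Ddit3 (rank 419) and Atf4 (rank 1152), of which Ddit3 and Atf4 act in the unfolded protein response, had p300 in proliferating iMOPs only.

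The Notch pathway, which separates progenitors from differentiating cells in the inner ear, had p300 in both states at a ligand gene and a receptor gene. Of 19 genes, 2 had p300 in neurons and 6 in proliferating iMOPs. Dll1, the ligand gene, had one of the strongest peaks of either list, with rank 21 and 14850 bp in neurons (chr17:15368251-15383100) and rank 10 and 11700 bp in proliferating iMOPs (chr17:15371601-15383300). The neuron peak covered nearly all of the gene, which spans 15367354 to 15376932, and the ground before its start. Notch1, the receptor gene, had rank 286 (6700 bp) in neurons and rank 114 (5450 bp) in proliferating iMOPs. Its printed promoter holds 5 GC boxes. Lfng, which encodes a glycosyltransferase that tunes Notch receptors, had p300 at its start in proliferating iMOPs only (rank 32, 7000 bp), but a peak away from its ends was shared (rank 355 in neurons and 153 in proliferating iMOPs). Notch2 (rank 1088) and the feedback inhibitor gene Nrarp (rank 1203) had p300 at an end in proliferating iMOPs only. At Notch2 too, 2 peaks away from the ends were shared.

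Repressors downstream of Notch and BMP signals formed the list with the highest share in proliferating iMOPs, with p300 at 2 of 15 genes in neurons and 10 of 15 in proliferating iMOPs. Both neuron members were Hes genes. Hes6, whose product opposes Hes1 and favours neuronal differentiation, had rank 218 (4850 bp) in neurons and rank 197 (5900 bp) in proliferating iMOPs. Hes3 lay under a peak of rank 75 and 13500 bp in neurons and of rank 9 and 25750 bp in proliferating iMOPs, a region that also reaches Acot7 and Gpr153. The Id genes, which encode inhibitors of bHLH factors, had p300 in proliferating iMOPs only, with rank 1608 at Id1, rank 1049 at Id2 and rank 228 at Id3 (10600 bp). So had Hes7 (rank 262), Hes1 (rank 687, 5300 bp) and Hes5 (rank 751, 8250 bp). CHD4 was listed at an end of all 6 genes in neurons, and H3K4me3 at Id1, Id2, Hes5 and Hes7 and not at Id3 or Hes1. No member of the list had a neuron p300 peak away from its ends.

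Otic progenitor regulators had p300 at a gene end at 0 of 24 genes in neurons and 1 of 24 in proliferating iMOPs (4.17%, beside 8.44% of all genes). The 1 member was Sox2, which maintains otic progenitors (rank 1457, 4650 bp, chr3:34646751-34651400, over its start). A second Sox2 peak away from the gene was shared, with rank 549 in neurons and 618 in proliferating iMOPs, and so were single peaks near Sox9 (rank 509 in neurons, 1086 in proliferating iMOPs) and Gata2 (720 and 1319). Other factors of enhancers, of the NFI, Meis, Pbx, Tead, Rfx and Sox families, had p300 at 1 of 31 genes in neurons and 14 in proliferating iMOPs. The shared one was Sox12, a SoxC gene, with rank 587 (4500 bp) in neurons and 368 (4450 bp) in proliferating iMOPs. Sox8 (rank 180, 11250 bp), Sox21 (rank 203) and Tead3 (rank 458, 11250 bp) led the rest. The Sox8 peak overlapped a neuron peak that did not reach the end of the gene.

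FGF signalling, which the proliferation medium stimulates, had p300 at 1 of 23 genes in neurons and 7 in proliferating iMOPs. The shared member, the receptor gene Fgfr4, carried it at an end that is not a listed transcript start and without H3K4me3, with rank 95 in neurons (5400 bp) and 438 in proliferating iMOPs (6000 bp). Targets and feedback inhibitors of the pathway had it in proliferating iMOPs only: Etv5, an ETS factor gene (rank 953), Dusp6, the gene of an ERK phosphatase (rank 1150), Spred1 (rank 1456) and Spred2 (rank 2029), genes of Ras inhibitors, and Dusp4 (rank 2264) and Etv1 (rank 2679). Neuron H3K4me3 was missing from the list at Etv5 and Dusp6 and present at the other 4. Neither list had p300 at an end of Myc, which had H3K4me3 and CHD4 at an end in both states, and a neuron peak near Myc (rank 921) had no proliferating match.

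At the ends of cell cycle genes, p300 was listed in proliferating iMOPs and in none of the genes in neurons, where 1.24% of all genes had it. Of 30 progression genes, 0 had it in neurons and 9 in proliferating iMOPs, all of which had neuron H3K4me3. The transcription factor gene E2f1 (rank 747), the helicase subunit gene Mcm7 (rank 789) and the cyclin gene Ccne2 (rank 1312) were the strongest. Of 17 genes of cell cycle exit, 0 had it in neurons and 6 in proliferating iMOPs, with the antiproliferative genes Tob1 (rank 552) and Btg2 (rank 1725) and the CDK inhibitor gene Cdkn2d (rank 1764) at the top. With the proliferating list trimmed to the neuron length by total signal, the proliferating counts were 2 for progression and 1 for exit. Peaks away from the ends lay at 4 progression genes and 2 exit genes in neurons. Distal peaks of these genes were in part shared, as near Mcm2 (rank 80 in neurons, and 159 for the strongest of 3 in proliferating iMOPs) and at Tob1 (rank 754 in neurons and 94 in proliferating iMOPs). Among 16 genes of Myc and growth the counts were 0 and 5, led by Mxd3 (rank 467), which encodes a partner of Max.

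Neuronal genes were examined in 3 lists, to be read beside the shares of all genes, 1.24% in neurons and 8.44% in proliferating iMOPs. Of 34 proneural and neuronal transcription factor genes, 1 had p300 at an end in neurons (2.94%) and 5 in proliferating iMOPs (14.7%). Insm1, a zinc-finger gene of newly formed neurons, had it in both, with rank 680 (4200 bp) in neurons and rank 2369 (3650 bp) in proliferating iMOPs. The POU factor genes Pou3f2 (rank 850) and Pou3f3 (rank 2062) and the proneural gene Neurog2 (rank 2412) had it in proliferating iMOPs only, and Neurod1 had no peak at or near it in either p300 list. Among 30 cytoskeletal and axonal genes of neurons, 2 had p300 in neurons (6.67%) and 4 in proliferating iMOPs (13.3%). Tubb3, the neuronal tubulin gene, had rank 282 (7550 bp, chr8:123408501-123416050) in neurons and rank 318 (10200 bp, chr8:123404501-123414700) in proliferating iMOPs. Tubb2b, another tubulin gene, had rank 760 (3800 bp) in neurons and 398 (3850 bp) in proliferating iMOPs. Of 30 synapse and ion channel genes the counts were 1 in neurons (3.33%) and 2 in proliferating iMOPs (6.67%). Cacng4, the gene of a calcium channel and AMPA receptor subunit, had p300 in both, with rank 452 (7150 bp) in neurons and 621 (4000 bp) in proliferating iMOPs.

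Axon guidance genes fell into 3 lists, to be read beside the shares of all genes, 1.24% in neurons and 8.44% in proliferating iMOPs. Trimmed to the neuron length by total signal, the proliferating list had p300 at an end of 1 gene in each of the 3. Among 22 Eph and ephrin genes, 0 had p300 at an end in neurons and 4 in proliferating iMOPs (18.2%), with Efna4 strongest (rank 889). Among 31 semaphorin, plexin and neuropilin genes, 0 had it in neurons and 4 in proliferating iMOPs (12.9%), with Sema6c strongest (rank 828). Away from ends, in the gene body or within 50 kb, the semaphorin list had 8 neuron peaks at 6 genes and 13 proliferating peaks at 7. The strongest in neurons lay at Plxnd1, a semaphorin receptor gene, with rank 38 in neurons and 2640 in proliferating iMOPs. Single neuron peaks at Nrp2 (rank 262) and Sema7a (rank 651) matched none in the other state. Of 24 Slit, Robo and netrin genes, 2 had p300 at an end in neurons and 3 in proliferating iMOPs. Slit1 had it in both at an end without H3K4me3, with rank 471 (5850 bp) in neurons and 2689 (3200 bp) in proliferating iMOPs, besides 4 peaks away from the ends in each state. Ntn3, a netrin gene, had it in both too, with rank 830 (8600 bp) in neurons and 1099 (8050 bp) in proliferating iMOPs. Draxin, a gene of a secreted guidance protein, had it in proliferating iMOPs (rank 69, 14250 bp) under a peak that also overlapped a neuron peak short of the gene end.

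Markers used to check the cell states gave the following values. Of 14 otic progenitor markers, 0 had p300 at an end in neurons and 8 in proliferating iMOPs, while H3K4me3 was listed at 11 in neurons and 14 in proliferating iMOPs. Of 18 neuron markers, 1 (Tubb3) had p300 in each state, and H3K4me3 was listed at 3 in neurons (Tubb3, Map2 and Elavl3) and 2 in proliferating iMOPs (Tubb3 and Map2). The other 15, among them Neurod1, Isl1, Pou4f1 and Dcx, had no H3K4me3 at an end in the neuron list. Markers of other cell types had p300 at 0 of 20 (hair cells), 0 of 16 (glia), 0 of 16 (mesenchyme) and 0 of 14 (blood and endothelium) in neurons, and at 1, 2, 1 and 1 in proliferating iMOPs. Over all genes the shares were 1.24% in neurons and 8.44% in proliferating iMOPs. In lists this short, a count of 0 in neurons does not set a list apart from all genes. This holds for the otic progenitor markers too. The counts of 1 or 2 in proliferating iMOPs do not set the lists of other cell types apart either. None of these counts therefore shows that other cell types were absent. The part of other cell types in the differences was not tested.

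Chromatin regulators of the NuRD complex, to which CHD4 belongs, had p300 at 1 of 15 genes in neurons and 7 in proliferating iMOPs. Mbd3, which encodes a subunit of the complex, had it in both with rank 819 (3500 bp) in neurons and 558 (2500 bp) in proliferating iMOPs. Cdk2ap1 (rank 104, 6850 bp), Chd3 (rank 196) and the histone-binding subunit gene Rbbp4 (rank 1462) led the others, the peak of Chd3 overlapping a neuron peak short of the gene end, and Chd4 had no p300 at an end in either state. Metabolic genes of fatty acid, sterol and glycolysis pathways had the most members in neurons, 4 of 25, against 9 in proliferating iMOPs. Gapdh, a glycolytic enzyme gene, had rank 539 (10100 bp) in neurons and 131 (12850 bp) in proliferating iMOPs. Insig1, a regulator of sterol synthesis, had rank 200 in neurons and 274 in proliferating iMOPs, and Scd2, the gene of a fatty acid desaturase, rank 693 (10750 bp) in neurons and 1691 (3400 bp) in proliferating iMOPs. Acot7, an acyl-CoA thioesterase gene, was the other. Fasn, Pkm (rank 316) and Srebf2 (rank 2004) had p300 in proliferating iMOPs only.

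Several p300 peaks lay over miRNA genes. Of 1005 hairpins, 13 lay under a neuron peak (1.29%) and 46 under a proliferating one (4.58%), with 9 in both, 4 in neurons only and 37 in proliferating iMOPs only. The mature sequences of those discussed are printed from RefSeq (GRCm38.p6), 5′ to 3′, with the seed, bases 2 to 8, in capitals. The let-7 hairpins Mirlet7b and Mirlet7c-2, known to rise as progenitors differentiate, share a seed and lay under 1 peak in each state (rank 83, 15550 bp, chr15:85697751-85713300 in neurons, and rank 67 in proliferating iMOPs). Mir26a-1 also had p300 in both states, with rank 328 in neurons and 68 in proliferating iMOPs:
let-7b-5p: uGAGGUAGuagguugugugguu
let-7c-5p: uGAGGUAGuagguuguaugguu
miR-26a-5p: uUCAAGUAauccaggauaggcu
Listed in proliferating iMOPs only were peaks over Mir9-2 (rank 1497), a miRNA gene of neural progenitors, over Mir132 and Mir212 (rank 825), which are neighbours known as CREB targets in neurons and share a seed, over Mir92b (rank 767), over Mir219a-1 (rank 1042), over Mir191 and Mir425 (rank 195) and over Mir210 (rank 585), a hypoxia-induced miRNA:
miR-9-5p: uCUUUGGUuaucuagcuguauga
miR-132-3p: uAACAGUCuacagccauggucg
miR-212-3p: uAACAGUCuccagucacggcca
miR-92b-3p: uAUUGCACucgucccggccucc
miR-219a-5p: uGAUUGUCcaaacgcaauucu
miR-191-5p: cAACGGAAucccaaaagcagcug
miR-425-5p: aAUGACACgaucacucccguuga
miR-210-3p: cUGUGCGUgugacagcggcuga
The 4 hairpins under neuron peaks only were Mir1941, Mir3080, Mir6999 and Mir7653, and those of Mir3080 (rank 265) and Mir6999 (rank 133) lay under peaks that overlapped a proliferating peak beside the hairpin. A hairpin under a peak can belong to a host gene whose promoter the peak covers, as Mir6935 at Actg1, and strands opposite each other, such as Mir219a-1 and Mir219c, cannot be told apart.

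Some genes held several p300 peaks in a row. Gse1, which encodes a coiled-coil protein, had the most in both states, 14 in neurons and 20 in proliferating iMOPs over its span of 353 kb on chromosome 8 (120228501 to 120581383). All 14 neuron peaks had a proliferating counterpart, and 14 of the 20 proliferating peaks had a neuron counterpart. Slit1 had 5 in each state. Joining peaks at most 12500 bp apart gave 871 regions in neurons, 79 of them with 2 or more peaks and at most 4, and 2704 regions in proliferating iMOPs, 323 with 2 or more and at most 15. The strongest neuron regions included those at Fbxw8, Gse1 and Foxo6. The strongest proliferating region, with 15 peaks over 135 kb, lay between genes, 11.6 kb from Atg7, an autophagy gene (chr6:114496251-114631500). It held 17 CHD4 peaks and no H3K4me3 peak in proliferating iMOPs, and no peak of p300, CHD4 or H3K4me3 in neurons.

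**Figure D5:**
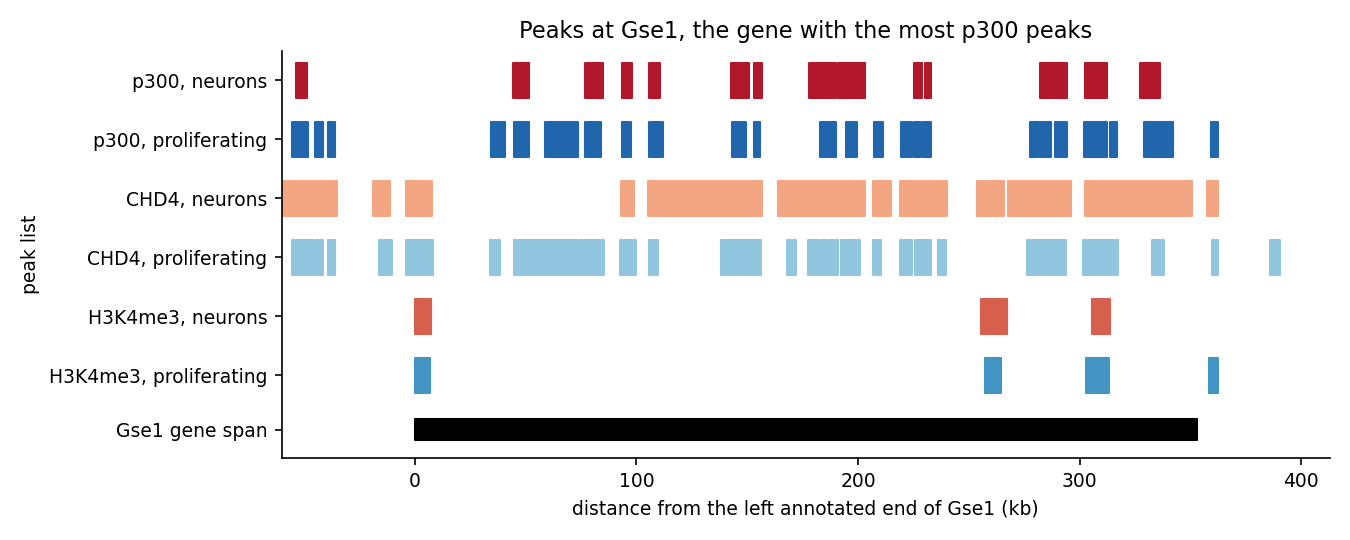
Peaks of p300, CHD4 and H3K4me3 in neurons (upper track of each pair) and proliferating iMOPs (lower track), in kb from the left annotated end of Gse1, whose span is the black bar. Neuron p300 peaks, 14 over the span, all stand over proliferating ones, of which there are 20, and neither state has p300 at the left end, where H3K4me3 is listed in both.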

How the data were processed

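Per the labels' protocols, CUT&Tag libraries of 500000 cells each were made with the CUT&Tag-IT kit and sequenced as pairs of 150 bp, 1 library for p300 in each state. Bowtie2, SEACR, deepTools and mm10 are named, without versions, per the submitters' processing notes. The sources used here do not give thresholds, the use of the IgG libraries or whether lists pool libraries. The signal values (total and highest signal per peak) are those the authors deposited, with no scaling given. Coordinates run in steps of 50 bp and count from 1. Ranks by total signal favour wide peaks.

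The lists were compared with SciPy 1.17.1, pandas 2.3.3 and numpy 2.4.6 under Python 3.11.15, after the functions were tested on simulated peaks. Genes were 21887 protein-coding spans of RefSeq (GRCm38.p6), which carry no strand, so both ends were used. Starts, known for 17492 genes, were an alternative. H3K4me3 and CHD4 lists served as annotation. The gene lists and the genes in them were chosen with earlier results of these data known. Named genes were 14 fixed ones, the strongest and widest peaks of each class, list members with neuron p300 and the 3 strongest with proliferating p300 only, in part left out for length. Other named genes, the miRNAs, the printed promoters and the host genes were picked with their values in view. The alternatives tried were another overlap rule, lists of equal length or cut to the stronger 50%, assembled chromosomes only, and windows of 500 bp and 2.5 kb. Starts, trimming by signal per base and a common minimum in steps were added after seeing the data.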

Additional observations from a re-analysis of the deposited data

How the results depend on the processing

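No paired analysis was possible because each state has 1 library and no test was made. The overlap of neuron peaks with the proliferating list, 75.6%, was 71.4% when at least 50% of a peak had to be covered, 71.6% with the stronger 50% of each list, and 48.3%, 37.2% and 33.4% when the proliferating list was trimmed to the neuron length by total signal, highest signal and signal per base. For the proliferating list, 23.5%, the same 3 trims gave 48.2%, 37.0% and 33.5%. With the proliferating list cut at the neuron minimum in steps, the shares were 10.1% for neurons and 71.8% for proliferating iMOPs. The share at gene ends in neurons, 21.5%, was 13.5% at annotated starts, 18.3% with the stronger 50% and 24.6% with the 2.5-kb window. In proliferating iMOPs, 43.5%, it was 34.6% at starts, 47.2% with 2.5 kb, 41.0%, 38.3% and 36.0% under the 3 trims, and 33.6% at the neuron minimum, above neurons each time. Own-state H3K4me3 lay under 8.92% of the stronger 50% of neuron peaks and 35.9% of the stronger 50% of proliferating ones, and under 41.9%, 40.7%, 38.7% and 38.9% of proliferating peaks after the trims and at the minimum.

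Median widths were 4825 bp in neurons and 4050 bp in proliferating iMOPs with the stronger 50%, and 4800 bp and 3100 bp for proliferating peaks trimmed by total and by highest signal, so which state had the wider peaks depended on the trim. Genes with neuron p300 numbered 154 at starts and 106 with the stronger 50%. Those with proliferating p300 numbered 597 and 479 trimmed by total and highest signal and 955 with the stronger 50%. Genes with both numbered 115 at starts, 92 trimmed by highest signal and 73 with the stronger 50%. List members with p300 numbered 13 in neurons with the stronger 50%, and in proliferating iMOPs 52 and 37 under the first 2 trims and 76 with the stronger 50%. The cause of these shifts was not tested beyond the lengths of the lists. Unknown depth and 1 library per state limit every value here.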

Other observations

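Of 57 genes of the histone clusters, 19 had p300 at an end in neurons and 41 in proliferating iMOPs, with 11 in both and 8 in neurons only, which is 8 of the 75 genes with p300 in neurons only. These genes are near-identical copies that lie close together, so reads can be split among them and 1 peak can reach several, and their values are uncertain. Ribosomal protein genes had p300 at 0 of 25 ends in neurons and 10 in proliferating iMOPs, led by Rpl3 (rank 136, 13000 bp), while neuron H3K4me3 was listed at 24 of 25. BMP and TGF-beta genes gave 0 of 24 in neurons and 6 in proliferating iMOPs, led by Smad6 (rank 1573) and Smad3 (rank 1824). With the proliferating list trimmed to the neuron length by total signal, the proliferating count was 2 for ribosomal protein genes and 0 for BMP and TGF-beta genes. Trimmed by highest signal, it was 0 and 1. Wnt genes gave 0 of 24 and 3, with the receptor gene Fzd9 strongest (rank 299), and other remodeller genes 0 of 22 and 4, led by Ep400 (rank 810). Under either trim the proliferating count was 1 for Wnt genes and 1 for remodeller genes. Over all protein-coding genes, 1.24% had p300 at an end in neurons and 8.44% in proliferating iMOPs.

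Some genes and chromosomes differed in how many peaks each list held. Tex14 and D430042O09Rik each held 4 neuron p300 peaks and no proliferating one, with best ranks of 246 and 372. Septin9 held 1 neuron and 6 proliferating peaks, and Myo10 held 2 and 6. Chromosome X had 3 of the 965 neuron peaks and 22 of the 3144 proliferating peaks, although 966 of the 21887 genes lie there. The widest proliferating peak (31500 bp, rank 25) lay on chromosome X at 170808651 to 170840150, 133 kb from Asmt, where neither state had a CHD4 or H3K4me3 peak. Unplaced or random contigs held 3 neuron and 24 proliferating peaks.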
